A study of Mus musculus with 8 samples.

Results

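The transcripts present 1 h after an injection of 17β-estradiol (E2) were set against those of vehicle-treated animals in the inguinal mammary gland of mice. The comparison used 3 of the 8 arrays of the study, namely the 1 array titled 1 h with E2 and the 2 arrays titled as vehicle controls. All animals were gonadectomized (GDX) virgin mice of 12 to 13 weeks, so the loss of the ovaries was shared by treated and control groups. The labels name no strain. E2, the main ovarian estrogen, was injected under the skin 1 h before necropsy, and the vehicle groups received the carrier solution. The labels attach different units to the dose, so it is left out. The vehicle arrays are titled 24 h and no vehicle array was titled 1 h, so an effect of E2 at 1 h cannot be told apart from that of a recent injection or of the time of day. The time of the 1 h array comes from its title, while the description of every sample reads 24 h. Per the labels the glands of a whole treatment group were taken, and they do not say how many mice an array stands for.

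Estrogen enters cells and binds the estrogen receptor alpha, a nuclear receptor that in the mammary gland is found in a subset of luminal epithelial cells and in stromal cells. The bound receptor regulates transcription at estrogen response elements and through other DNA-bound factors such as AP-1, and a membrane-associated pool of the receptor can activate kinase cascades. The first transcripts to appear after almost any stimulus come from immediate early genes, whose messenger RNAs need no new protein for their synthesis and are usually short-lived. They code for transcription factors such as the Fos, Jun and Egr proteins and for feedback inhibitors of the pathways that induced them.

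One array stood for 1 h, so no difference at 1 h has a replicate check and genes were described by size alone. A gene was counted when the 1 h array lay at least 1.5-fold above, or at least 1.5-fold below, each vehicle array. This distance is 0.585 on the log2 scale, and all differences below are of log2 intensity. Intensities of different genes come from different probes and were not set against each other. Of 10916 genes with sufficient signal, 32 (0.293%) lay above both vehicle arrays by this limit and 3 (0.0275%) lay below both. The same count with a vehicle array as the odd one gave 5 genes for vehicle 1 and 5 for vehicle 2. The SD over genes of the difference between the vehicle arrays was 0.13, against 0.138 for 1 h minus vehicle 1 and 0.114 for 1 h minus vehicle 2. Most genes therefore lay as near to the vehicle arrays at 1 h as the vehicle arrays lay to each other, and the 1 h array stood out by a small number of large differences, mostly upward. Set against vehicle 2 alone, without vehicle 1, 53 genes lay 1.5-fold away, and without vehicle 2 there were 61.

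The asymmetry of the counts changed with the limit. At a lower limit of 0.32 on the log2 scale, 80 genes (0.733%) lay above both vehicle arrays at 1 h and 14 (0.128%) lay below both. Vehicle 1 as the odd array gave 36 higher and 54 lower at the lower limit, and vehicle 2 gave 6 and 30. The total of 94 at 1 h was thus near the total of 90 for vehicle 1, with most of the 1 h genes higher and most of the vehicle 1 genes lower. At 1.5-fold the 1 h array stood apart in number, while vehicle 1 too had more higher than lower genes, 4 and 1. At 2-fold 6 genes (0.055%) lay above both vehicle arrays at 1 h and 0 below, and 0 with either vehicle array as the odd one. A limma fit, run as an alternative with its only residual degree of freedom from the vehicle pair, called 6 genes higher (0.055%) and 1 lower (0.00916%). It rests on the same values and is no independent support.

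**Figure D1:**
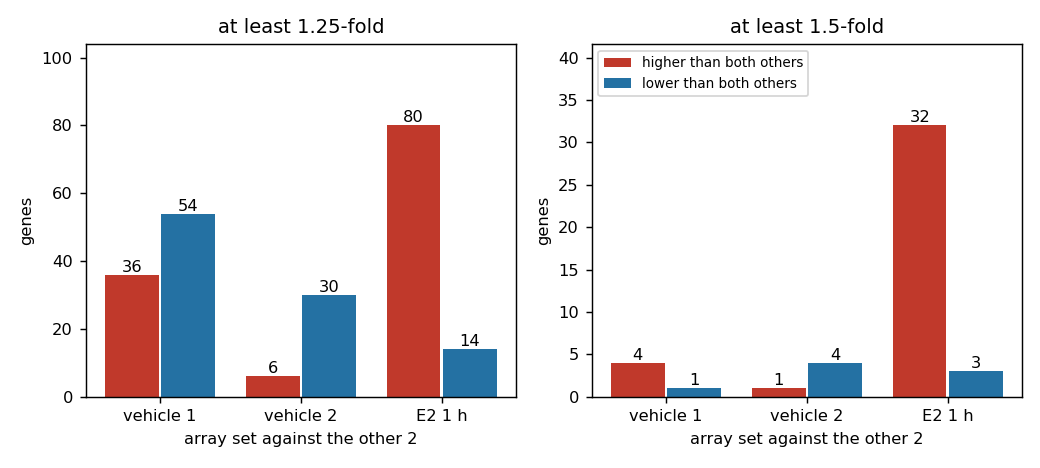
Number of genes (vertical axis, starting at 0) at least 0.32 on the log2 scale or at least 1.5-fold above (red) or below (blue) both other arrays, for each of vehicle 1, vehicle 2 and E2 1 h as the odd array of the 3. At 1.5-fold the E2 1 h array had 32 higher genes, against 4 and 1 for the vehicle arrays.

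Tissue markers differed between these arrays. The marker lists, like all gene lists used here, were chosen with earlier results of these data known, so their counts are descriptions. Skeletal muscle genes made up 15 of the 32 higher genes. They were 15 of the 21 muscle markers with sufficient signal, where 0.293% of all genes passed the limit upward. Of 21 muscle markers with sufficient signal, 19 lay above both vehicle arrays at 1 h, where 39.7% of all genes lay above both, with a median of 0.85 against 0.02 over all genes. The muscle list also separated the vehicle arrays, with a median of 0.40 higher in vehicle 1 than in vehicle 2, and its summed intensity was 19386 and 14702 in the vehicle arrays and 30075 at 1 h. Markers of the gland itself were present, with signal from 21 of 21 luminal epithelial, 9 of 13 myoepithelial and 15 of 15 matched adipocyte markers, and their medians at 1 h were 0.03, 0.06 and 0.05. Medians were 0.01 for fibroblast, 0.03 for macrophage, 0.14 for B lymphocyte and 0.05 for T lymphocyte markers. In tissue RNA, more cells of a type and more RNA per cell cannot be told apart. The part of muscle RNA in the values of other genes was not tested. The level limit applied to the mean over all arrays, so a gene could pass it through the E2 arrays alone. For 4 of the 35 genes, Acot1, Krt4, Neb and Mup10, both vehicle arrays lay below the limit of 211. The tropomyosin gene Tpm1 is not on the muscle list, but its later course was shaped like the muscle medians, as given below. Without the muscle list 20 genes were left, 17 higher (Tpm1 among them) and 3 lower, and these are described first.

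**Figure D2:**
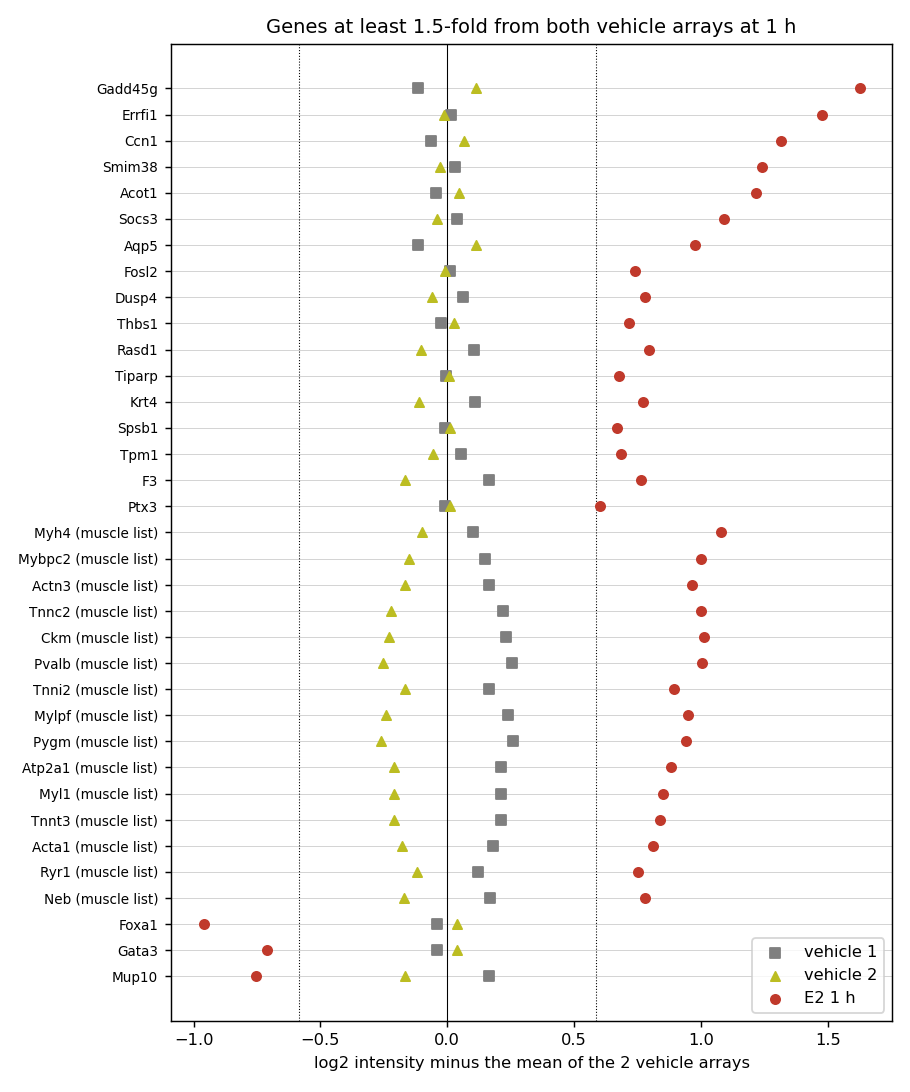
Log2 intensity minus the mean of the vehicle arrays (horizontal axis) for the 35 genes past the limit, with vehicle 1 as squares, vehicle 2 as triangles and E2 1 h as circles. Dotted lines mark 1.5-fold from the vehicle mean. The vehicle arrays lay close together for Errfi1, Fosl2, Tiparp and Spsb1, and vehicle 1 lay to the right of vehicle 2 in all 15 genes of the muscle list.

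The DNA just upstream of 6 of these genes is shown first, together with what a motif search found in it. They are 5 of the 6 genes at least 2-fold above both vehicle arrays, leaving out the little-studied Smim38, and the lower gene farthest from vehicle. Sequences are the 250 bases before the annotated start, from RefSeq on mouse assembly GRCm38.p6, written 5′ to 3′ on the strand of the gene, with motif matches in capitals. The intervals are chr13:51846425-51846674 (plus strand) for Gadd45g, chr4:150853546-150853795 (plus strand) and chr4:150854820-150855069 (plus strand) for the 2 annotated starts of Errfi1, chr3:145649986-145650235 (minus strand) for Ccn1, chr11:117969367-117969616 (minus strand) for Socs3, chr12:84009252-84009501 (plus strand) for Acot1 and chr12:57546112-57546361 (minus strand) for Foxa1. The arrays do not tell which start of Errfi1 was used.
Gadd45g: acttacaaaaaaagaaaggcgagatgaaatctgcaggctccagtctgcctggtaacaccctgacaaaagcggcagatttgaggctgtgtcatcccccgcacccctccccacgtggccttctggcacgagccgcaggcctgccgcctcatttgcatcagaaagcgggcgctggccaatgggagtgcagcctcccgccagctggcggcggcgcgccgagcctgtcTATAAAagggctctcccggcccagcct
Errfi1 start 1: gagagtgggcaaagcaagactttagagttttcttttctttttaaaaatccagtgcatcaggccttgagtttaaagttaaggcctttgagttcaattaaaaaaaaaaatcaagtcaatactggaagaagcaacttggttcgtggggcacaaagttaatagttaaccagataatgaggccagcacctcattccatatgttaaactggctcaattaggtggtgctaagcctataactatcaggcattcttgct
Errfi1 start 2: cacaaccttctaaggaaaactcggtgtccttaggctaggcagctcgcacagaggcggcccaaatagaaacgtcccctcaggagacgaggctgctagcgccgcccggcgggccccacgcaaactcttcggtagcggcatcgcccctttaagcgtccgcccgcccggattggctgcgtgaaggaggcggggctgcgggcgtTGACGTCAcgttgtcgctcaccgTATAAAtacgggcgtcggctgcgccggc
Ccn1: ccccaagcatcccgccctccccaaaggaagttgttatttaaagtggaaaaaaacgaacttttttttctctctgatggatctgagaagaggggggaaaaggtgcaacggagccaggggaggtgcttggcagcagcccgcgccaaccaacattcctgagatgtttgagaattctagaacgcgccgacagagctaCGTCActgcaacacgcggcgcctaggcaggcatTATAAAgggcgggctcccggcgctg
Socs3: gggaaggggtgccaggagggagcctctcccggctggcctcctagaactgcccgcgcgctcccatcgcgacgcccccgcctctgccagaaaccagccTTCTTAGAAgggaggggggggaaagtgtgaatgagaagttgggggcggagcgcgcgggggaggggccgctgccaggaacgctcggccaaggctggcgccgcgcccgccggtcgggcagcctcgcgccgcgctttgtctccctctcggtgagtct
Acot1: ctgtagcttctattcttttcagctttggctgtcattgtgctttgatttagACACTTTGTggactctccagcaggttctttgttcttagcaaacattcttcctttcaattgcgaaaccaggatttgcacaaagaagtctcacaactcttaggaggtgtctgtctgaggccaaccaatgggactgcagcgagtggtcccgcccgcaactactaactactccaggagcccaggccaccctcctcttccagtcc
Foxa1: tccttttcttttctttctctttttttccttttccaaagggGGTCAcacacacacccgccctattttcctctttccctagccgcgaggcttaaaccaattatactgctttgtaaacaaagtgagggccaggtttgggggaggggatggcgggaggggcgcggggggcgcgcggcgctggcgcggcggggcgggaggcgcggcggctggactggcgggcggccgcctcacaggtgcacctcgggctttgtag

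The motifs searched on both strands were the cAMP response element TGACGTCA (CRE) and its core TGACG, the AP-1 site TGANTCA, the estrogen response element (ERE, GGTCA and TGACC with NNN between them) and its core GGTCA, the glucocorticoid response element core ACANNNTGT, the STAT site TTCNNNGAA, TATAAA as the TATA box, and the CArG box bound by serum response factor. The CRE and the ERE each contain their core on both strands. Of all 32851 upstream windows of 250 bases, 1.55% held the CRE, 17.8% its core, 6.75% the AP-1 site, 0.0639% the ERE, 35.2% its core, 5.84% the glucocorticoid core, 7.02% the STAT site, 12.4% the TATA box and 1.47% the CArG box. A CRE lay from -51 to -44 at the downstream start of Errfi1, followed by a TATA box from -28 to -23. A TATA box also lay from -27 to -22 in Gadd45g and from -25 to -20 in Ccn1, which had a CRE core from -58 to -54. Socs3 held a STAT site from -154 to -146, Acot1 a glucocorticoid core from -200 to -192 and Foxa1 an ERE core from -210 to -206. Upstream sequences were matched for 13 of the 17 higher genes and for the 3 lower genes. An ERE core was found in 4 of the 13 higher genes, Aqp5, F3, Smim38 and Spsb1, where 35.2% of all windows held it. Among the 3 lower genes it was found in 2, Foxa1 and Gata3. F3 also held an AP-1 site, Smim38 a STAT site and Tpm1 a CRE core. Of these 16 genes 0 held the full ERE or the CArG box in this window. A match is a description of letters, and receptor or factor binding was not measured here.

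Past the limit were 2 of the 18 genes with signal of the MAP kinase and epidermal growth factor receptor feedback list, Errfi1 and Dusp4. Of the cytokine and SOCS list it was 1 of 28, Socs3. Over all genes 0.293% lay above both vehicle arrays by this limit. Spsb1 and Rasd1, on none of the lists, are described beside them. Errfi1, an inhibitor that binds the kinase domain of the epidermal growth factor receptor, read 1011 and 987 in the vehicle arrays and 2780 at 1 h, 2.78-fold above the vehicle mean. Its vehicle arrays differed by 0.03, and its other probe set lay 1.62 above vehicle. Socs3, a feedback inhibitor of cytokine signalling through JAK kinases, read 1434 and 1361 in the vehicle arrays and 2971 at 1 h, 2.13-fold above. Its other 2 probe sets lay 0.86 and 0.99 above. Dusp4, a nuclear phosphatase of MAP kinases, read 441 and 405 in vehicle and 724 at 1 h, a difference of 0.78. Spsb1, a SOCS box adaptor of a ubiquitin ligase, read 810.5 and 822 in vehicle and 1297 at 1 h, and its other 3 probe sets lay from 0.13 to 0.46 above vehicle. Rasd1, a Ras-related small GTPase first known as a dexamethasone-induced gene, read 678 and 583 in vehicle and 1089 at 1 h. For each of these 5 genes the 1 h array lay outside the vehicle pair by more than the vehicle arrays lay apart. The 1.5-fold limit largely fixes this, so it is no check of these genes.

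The list of MAP kinase and epidermal growth factor receptor feedback genes lay on both sides of vehicle. Of 18 members with signal, 10 lay above both vehicle arrays and 2 below both, with a median of 0.09. Over all genes 39.7% lay above both and 22.1% below both, and the counts of the lists that follow are to be read against these shares. Dusp1, another MAP kinase phosphatase, lay 0.36 above the vehicle mean, Dusp5 0.14 and Cish, of the SOCS family, 0.21, while Dusp6 lay at -0.01 and Spry1, a Sprouty inhibitor of receptor kinase signalling, at -0.10. Among the receptors and ligands of the epidermal growth factor family 3 of 7 with signal lay above both vehicle arrays, near the 39.7% of all genes. Erbb3, the kinase-impaired receptor for neuregulins, was the farthest at 0.30, and Hbegf, a ligand gene with a signal below the level limit, read 146 and 151 in vehicle and 150.4 at 1 h.

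In the list of cytokine and SOCS response genes, 21 of 28 lay above both vehicle arrays (39.7% of all genes) and 1 below both (22.1%), with a median of 0.15. Pim1, a kinase induced by STAT factors, lay 0.43 above the vehicle mean. Zfp36, which destabilises messenger RNAs with AU-rich elements, lay 0.40 above, Nfkbiz, a nuclear IκB protein, 0.39, and Il17ra, the interleukin 17 receptor subunit, 0.49. Socs2 lay 0.45 above with vehicle arrays 0.33 apart. At 3 h Il17ra and Socs2 were farther above vehicle than at 1 h, at 1.08 and 0.68, while Pim1, Zfp36 and Nfkbiz were nearer to it, at 0.31, 0.32 and 0.21. Ptgs2, the inducible cyclooxygenase, lay between the vehicle arrays, as did Il6, the interleukin 6 gene, with a signal below the level limit.

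Most immediate early transcription factors lay above vehicle by small distances. Of 36 with signal, 28 lay above both vehicle arrays (39.7% of all genes), 2 below both (22.1%) and 6 between them, with a median of 0.13 against 0.02 over all genes. Only Fosl2, coding for the AP-1 subunit Fra-2, passed the 1.5-fold limit, with 695 and 684 in the vehicle arrays and 1150.3 at 1 h. Its other probe set lay 0.25 above. Nfil3, a basic leucine zipper repressor, lay 0.60 above the vehicle mean, Cebpb, a CCAAT enhancer binding protein, 0.54, and Junb, an AP-1 subunit, 0.49. Fos read 1984 and 2283 in the vehicle arrays and 2977 at 1 h, 0.48 above their mean.

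Other classical immediate early genes lay nearer to vehicle. Egr1, a zinc finger factor, read 1684 and 1717 in the vehicle arrays and 2009 at 1 h, a difference of 0.24. Nr4a1, an orphan nuclear receptor, lay 0.42 above, Ier2 0.32, Jun 0.21 and Myc 0.22. Atf3 lay 0.29 above with vehicle arrays 0.39 apart. Egr3 and Nr4a3 lay between the vehicle arrays, and Id3, an inhibitor of helix-loop-helix factors, lay at -0.25 and Maff at -0.13. Fos, Egr1 and Myc lay higher at 3 h, at 0.66, 0.70 and 0.39.

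Genes known to respond to cyclic AMP through CREB lay above both vehicle arrays in 12 of 15 cases and below both in 0, against 39.7% and 22.1% of all genes, with a median of 0.27. Pde4b, a cyclic AMP phosphodiesterase, lay 0.39 above, Crem, a CREB family member, 0.35, and Sik1, a kinase that restrains CREB coactivators, 0.33. This list shares members with other lists, Dusp1, Nr4a1, Per1 and Btg2 among them. Ucp1, the uncoupling protein of brown fat, lay 0.64 above the vehicle mean, with vehicle arrays 0.74 apart.

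**Figure D3:**
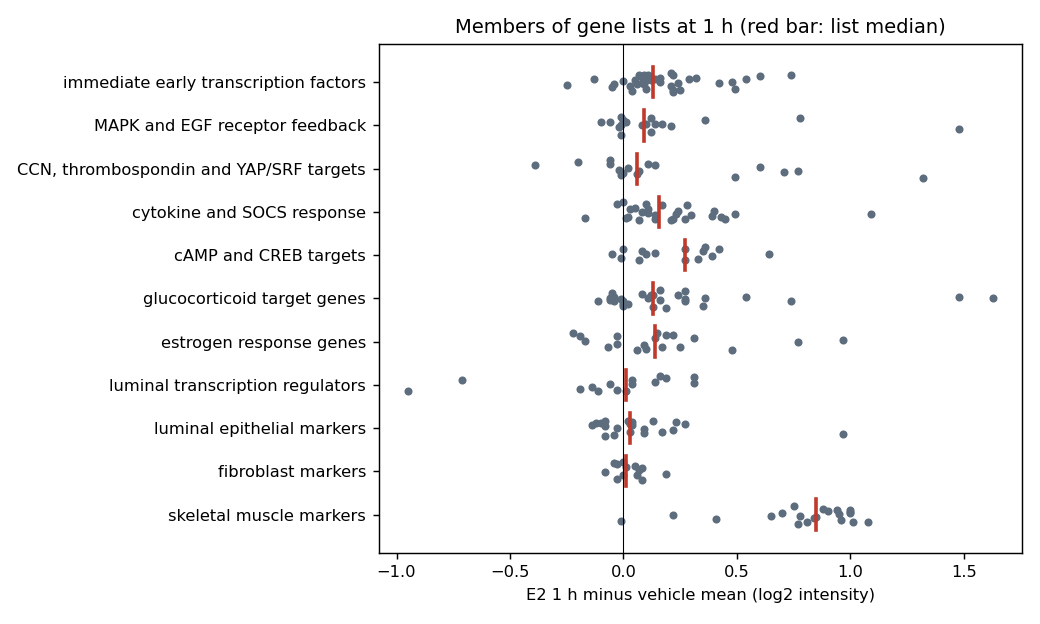
Differences of single genes between E2 1 h and the vehicle mean (horizontal axis, log2 intensity) for the members of 11 gene lists, 1 point per gene with sufficient signal and a red bar at the list median. The immediate early list was shifted upward by a median of 0.13 and the muscle list by 0.85, while the luminal transcription regulators held the lowest points.

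Gadd45g, a stress sensor that binds cell cycle and MAP kinase proteins, lay farthest from its nearer vehicle array among the 10916 genes. It read 200.4 and 236 in the vehicle arrays and 671 at 1 h, 3.08-fold above the vehicle mean, and stayed 1.19 above at 3 h and 0.76 above at 6 h. Gadd45a, of the same family, lay 0.53 above the vehicle mean and Gadd45b lay 0.11 above. Cdkn1a, the p53-regulated cell cycle inhibitor p21, lay 0.13 above. Plk2, a stress-responsive kinase, was on the other side, with 886 and 897 in the vehicle arrays and 628 at 1 h. The 12 members of this list with signal thus held 6 above both vehicle arrays, 3 below both and a median of 0.10.

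Of the list of CCN, thrombospondin and YAP/SRF target genes, Ccn1, Thbs1 and F3 passed the limit. They were 3 of 17 genes with signal, where 0.293% of all genes passed it upward. The list was chosen with earlier results of these data known, so this count is a description. Ccn1, a secreted ligand of integrins, read 444 and 489 in the vehicle arrays and 1159.5 at 1 h, 2.49-fold above their mean. All of its other 3 probe sets lay at least 0.90 above. Thbs1, coding for thrombospondin 1, read 757 and 782 in vehicle and 1258 at 1 h, and its other probe set lay 0.64 above. F3, tissue factor, the starter of coagulation, read 376 and 299.7 in vehicle and 572 at 1 h. Ptx3, a secreted long pentraxin of innate immunity that is on none of the lists, read 939 and 952 in vehicle and 1431 at 1 h. Ptx3 was the member nearest the limit, at 0.59 from the nearer vehicle array, and its other probe set lay at -0.13. Ccn2, the connective tissue growth factor, lay 0.49 above the vehicle mean and Adamts1, a secreted metalloprotease, 0.60 above. Edn1, the endothelin precursor, lay below both vehicle arrays at -0.39. In the CCN, thrombospondin and YAP/SRF list, without Ptx3, 9 of 17 lay above both vehicle arrays and 4 below both, against 39.7% and 22.1% of all genes, with a median of 0.06.

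Acot1, Aqp5, Smim38 and Tiparp were past the limit as well. Acot1, a cytosolic thioesterase that releases fatty acids from acyl-CoA, read 140.5 and 149 in the vehicle arrays and 336 at 1 h, 2.32-fold above. It passed the level limit through the E2 arrays, with 826.5 at 3 h. Close relatives of Acot1 exist in the genome, and whether its probe set separates them was not tested. Aqp5, a water channel of secretory epithelia, read 379 and 447 in vehicle and 808 at 1 h, 1.96-fold above. Smim38, a small integral membrane protein gene, read 330 and 316 in vehicle and 758.5 at 1 h, and its other 2 probe sets lay 0.41 and 1.77 above. Tiparp, a mono-ADP-ribosyltransferase known as a target of the aryl hydrocarbon receptor, read 692 and 702 in vehicle and 1117 at 1 h, with other probe sets at 0.48 and 0.85. Tpm1, a tropomyosin outside the muscle list, lay 0.69 above, with its other 3 probe sets from -0.28 to 0.32.

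Krt4, a keratin of stratified epithelium, read 183 and 158 in the vehicle arrays and 290.1 at 1 h, 0.77 above their mean, and its other probe set lay 0.42 above. It too passed the level limit through the E2 arrays, with 1798 at 3 h and 979 at 6 h. Some genes of the epidermis lay above vehicle on the same array. Krt10, a keratin of differentiating epidermis with a signal below the level limit, read 133.5 and 127 in vehicle and 313 at 1 h. In a list of 30 epidermal keratinocyte genes that was made after these values were seen, 27 were matched, 7 of them with sufficient signal. Of the 27, 18 lay above both vehicle arrays and 0 below both, with a median of 0.17. The shares of all genes given above cover only genes with sufficient signal, so they do not apply to this count. Without such a share the count is no result about epidermal genes as a set. The summed intensity of this list was 6784 and 6514 in the vehicle arrays, 7715 at 1 h and 8551 at 3 h. Krt14, the basal keratin, also with a signal below the level limit, lay 0.22 above the vehicle mean. The cornified envelope gene Flg was near the lowest intensities, at 16.8 and 17.4 in vehicle and 19.2 at 1 h. The part of epidermal RNA in the value of Krt4 was not tested.

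Foxa1 and Gata3, both transcription factors of the luminal lineage, lay below vehicle. Foxa1, a pioneer factor that makes closed chromatin accessible to nuclear receptors, read 1368 and 1444 in the vehicle arrays and 726 at 1 h, 0.52 of the vehicle mean. Gata3, which maintains luminal differentiation, read 299 and 316 in vehicle and 188 at 1 h, 0.61 of the vehicle mean. In both genes the vehicle arrays differed by 0.08, and the 1 h array lay at least 0.67 below the nearer one. The third lower gene, Mup10, of the major urinary protein family of pheromone carriers, read 208 and 165.0 in vehicle and 109.9 at 1 h, with vehicle arrays 0.33 apart. Its family has near-identical copies, so its signal may come from several genes.

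Luminal regulators as a list lay on both sides of vehicle. Of 15 with signal 6 lay above both vehicle arrays and 6 below both, Foxa1 and Gata3 included, with a median of 0.01. Esr1, the estrogen receptor alpha, read 1551 and 1505 in vehicle and 1541 at 1 h, between the vehicle arrays. Elf5, a factor of the secretory lineage, lay 0.31 above, Tbx3 0.19 above and Cited1, a coactivator of the estrogen receptor, at -0.19. Of the 21 luminal epithelial markers 8 lay above both vehicle arrays and 6 below both. Among the estrogen receptor coregulators Med1, a Mediator subunit that binds the receptor, lay at -0.44 and Nrip1, a corepressor, at -0.22, both below both vehicle arrays.

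Several classical estrogen targets lay near vehicle at this time, while other estrogen response genes lay farther above it. Pgr, the progesterone receptor gene, read 285 and 366 in the vehicle arrays and 400.2 at 1 h, 0.31 above their mean with vehicle arrays 0.36 apart, and lay 2.43 above at 3 h. Ccnd1, cyclin D1, lay 0.15 above with vehicle arrays 0.23 apart, and Xbp1, a factor of the secretory pathway, 0.14 above. Greb1, with a signal below the level limit, lay between the vehicle arrays, as did Wnt4, a paracrine signal of the luminal cells. Of 19 estrogen response genes with signal 13 lay above both vehicle arrays and 6 below both, against 39.7% and 22.1% of all genes. Their median was 0.14. Aqp5 lay 0.97 above the vehicle mean, Krt4 0.77 and Fos 0.48, while Nrip1 lay at -0.22. This list holds Krt4 and Aqp5, which were placed on it with the results of these arrays known, so it is not independent evidence of direction. The other lists too were chosen with earlier results of these data known.

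Glucocorticoid targets were examined because handling and injection raise circulating glucocorticoids, and no vehicle array was taken 1 h after an injection. Of 29 with signal 14 lay above both vehicle arrays and 1 below both, against 39.7% and 22.1% of all genes, with a median of 0.13. The count above both was thus near the share of all genes, while the count below both was under it. Errfi1 and Gadd45g belong to this list. Pdk4, an inhibitor of glucose oxidation, read 766 and 1077 in the vehicle arrays and 1518 at 1 h. Tsc22d3, the leucine zipper protein GILZ, lay 0.35 above with vehicle arrays 0.36 apart, and Per1, a clock gene with a glucocorticoid response element, 0.27 above. Fkbp5, a chaperone of the glucocorticoid receptor and one of its best-known targets, read 1079 and 1405 in vehicle and 1231 at 1 h, between them. Sgk1, a kinase, and Zbtb16, a zinc finger factor, also lay between the vehicle arrays. The part of glucocorticoids in the values of Errfi1 and Gadd45g cannot be told apart from that of E2 in this design.

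**Figure D4:**
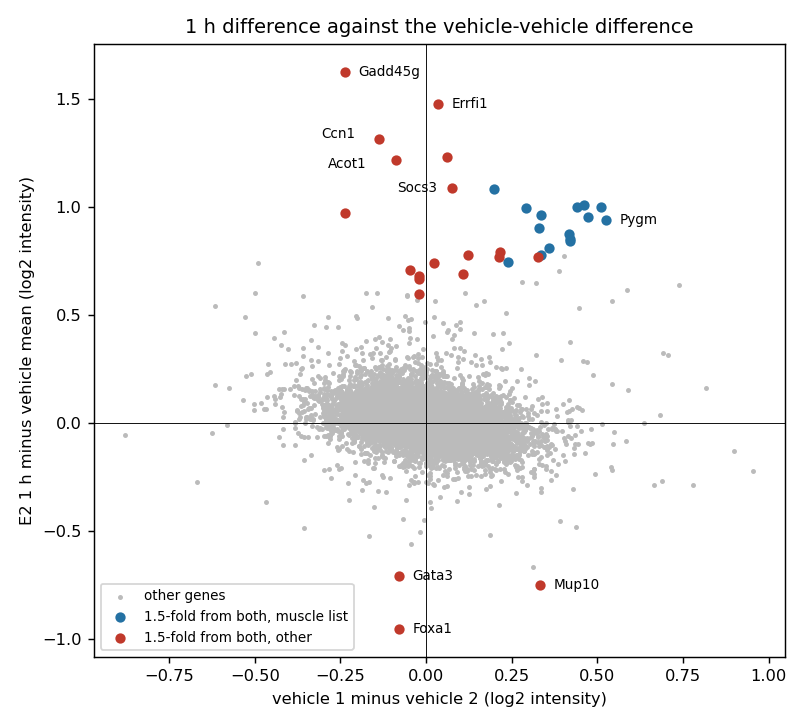
Difference of E2 1 h from the vehicle mean (vertical axis) against the difference between vehicle 1 and vehicle 2 (horizontal axis), both in log2 intensity, for 10916 genes. The muscle genes (blue) lay to the right, where vehicle 1 exceeded vehicle 2, while Gadd45g, Errfi1, Ccn1, Foxa1 and Gata3 (red) lay far from zero on the vertical axis at vehicle differences of at most 0.24 in size.

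The 15 muscle genes above the limit code for parts of the contractile apparatus, its calcium handling and its energy supply. Over all 30 listed muscle markers, 9 of them below the level limit, 20 lay above both vehicle arrays, 3 below both and 7 between them. The shares given for all genes cover only those with sufficient signal and do not apply to this count. Below both were Myh1, a fast myosin heavy chain that read 218.5 and 87.7 in vehicle and 75.2 at 1 h, Mybpc1, a slow myosin binding protein, at -0.23 and Myh2, another fast myosin heavy chain, at -0.18 from the vehicle mean. Mb, myoglobin, lay between the vehicle arrays, as did Ckmt2, a mitochondrial creatine kinase, and Actn2, an actinin. Myh4, a fast myosin heavy chain, read 694.5 and 605 in the vehicle arrays and 1373 at 1 h, the largest difference of the list at 1.08. Ckm, muscle creatine kinase, read 1696 and 1231 in vehicle and 2909.5 at 1 h, and Pygm, muscle glycogen phosphorylase, read 446 and 309.9 in vehicle and 712 at 1 h. The other 12 genes, Mybpc2, Actn3, Tnnc2, Pvalb, Tnni2, Mylpf, Atp2a1, Myl1, Tnnt3, Acta1, Ryr1 and Neb, lay between 0.75 and 1.00 above the vehicle mean. In all 15 genes vehicle 1 exceeded vehicle 2, by 0.20 in Myh4 to 0.52 in Pygm. Ttn, which codes for titin, lay just outside the limit at 0.57 from the nearer vehicle array, and Casq1, the calcium store protein calsequestrin, lay at 0.51.

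Just outside the 1.5-fold limit lay further regulators. Slc25a33, a mitochondrial pyrimidine nucleotide carrier, lay 0.57 above the nearer vehicle array, Jdp2, a Jun dimerization protein, 0.56, and Ets2, a transcription factor activated by MAP kinases, 0.55. Sox9, a transcription factor of progenitor cells in several epithelia, lay 0.55 above the nearer vehicle array, and at -0.09 from the vehicle mean at 3 h. Nfil3 and Cxcl9, a chemokine induced by interferon gamma, followed at 0.53 and 0.51. On the lower side Dmrt2 lay at -0.54, the long noncoding nuclear RNA Malat1 at -0.51, Plk2 at -0.50 and Lratd1 at -0.44 from the nearer vehicle array. Just inside the limit lay Ptx3 at 0.59, F3 and Neb at 0.61, and Ryr1 and Acta1 at 0.63.

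Agreement between probe sets of a gene describes the measurement within the same arrays and is no replicate. Of the 35 genes, 15 had other probe sets, 25 in all. Of these 22 lay on the same side of both vehicle arrays as the chosen probe set, and 10 passed the 1.5-fold limit. The 3 that did not lie on the same side belonged to Ptx3, Tnni2 and Tpm1. Foxa1, Gata3, Gadd45g, Acot1, Aqp5, Dusp4, Rasd1 and F3 were each read by a single probe set.

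The genes far from vehicle at 1 h followed different courses afterwards. The later arrays were set against the same vehicle arrays, so the comparisons share them, and each time had 1 array. The genes were chosen for their distance on the 1 h array, which favours a largest difference at that time, so these counts are a description. Of the 17 higher genes outside the muscle list, 11 had their largest difference at 1 h, 5 at 3 h and 1 at 6 h. At 3 h 10 of the 17 still lay at least 1.5-fold above both vehicle arrays, where 0.568% of all genes did. At 6 h 6 did (0.586% of all genes), and from 12 h on 0 did (0.147%, 0.211% and 0.192% of all genes at 12, 18 and 24 h). Their medians at 1, 3, 6 and 12 h were 0.78, 0.70, 0.26 and 0.10. The muscle genes followed another course, with medians of 0.94, 0.72, 1.23, 0.21, 0.92 and 0.92 at the 6 times.

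Errfi1, Gadd45g, Socs3, Fosl2, Dusp4, Rasd1, Tiparp, Spsb1, Thbs1, Smim38 and Ptx3 were highest at 1 h. Socs3 stood at 1.09 at 1 h and 0.48 at 3 h, and Errfi1 at 1.48, 0.96 and 0.26 at 1, 3 and 6 h. Spsb1 went from 0.67 to 0.31 to 0.09 over the same times. These courses contrast with those of Krt4, F3, Acot1, Aqp5 and Ccn1, whose largest difference was at 3 h, and of Tpm1, at 0.69 at 1 h and 0.70 at 6 h. Tpm1 lay at 0.45 at 3 h, fell to 0.17 at 12 h and then stood at 0.57 at 18 h and 0.47 at 24 h. The last of these values were the highest of the 17 genes at those times. The muscle medians too were lowest at 12 h and higher again afterwards. The part of muscle RNA in the value of Tpm1 was not tested. Krt4 went from 0.77 at 1 h to 3.40 at 3 h and 2.53 at 6 h, F3 from 0.77 to 2.10 and 1.23, Acot1 from 1.22 to 2.51 and 1.31, and Aqp5 from 0.97 to 1.86 and 0.72. Ccn1 was nearly level, at 1.32 and 1.36 at 1 and 3 h, as was Thbs1, at 0.71 and 0.70.

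Foxa1 lay at -0.95, -2.63, -0.90 and -0.26 at 1, 3, 6 and 12 h and was within 0.07 of the vehicle mean at 18 and 24 h. Gata3 lay at -0.71 and -0.86 at 1 and 3 h and at -0.24 at 6 h. Mup10, by contrast, lay at 0.13 at 3 h and 1.07 at 6 h. Past 1.5-fold below both vehicle arrays were Foxa1 and Gata3 at 3 h (0.229% of all genes) and Foxa1 at 6 h (0.156%), and 0 of the 3 genes later (0.0641%, 0.0183% and 0.0275% of all genes at 12, 18 and 24 h). The lowest point of Foxa1 and of Gata3 was thus at 3 h, and both were back near vehicle by 18 h.

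**Figure D5:**
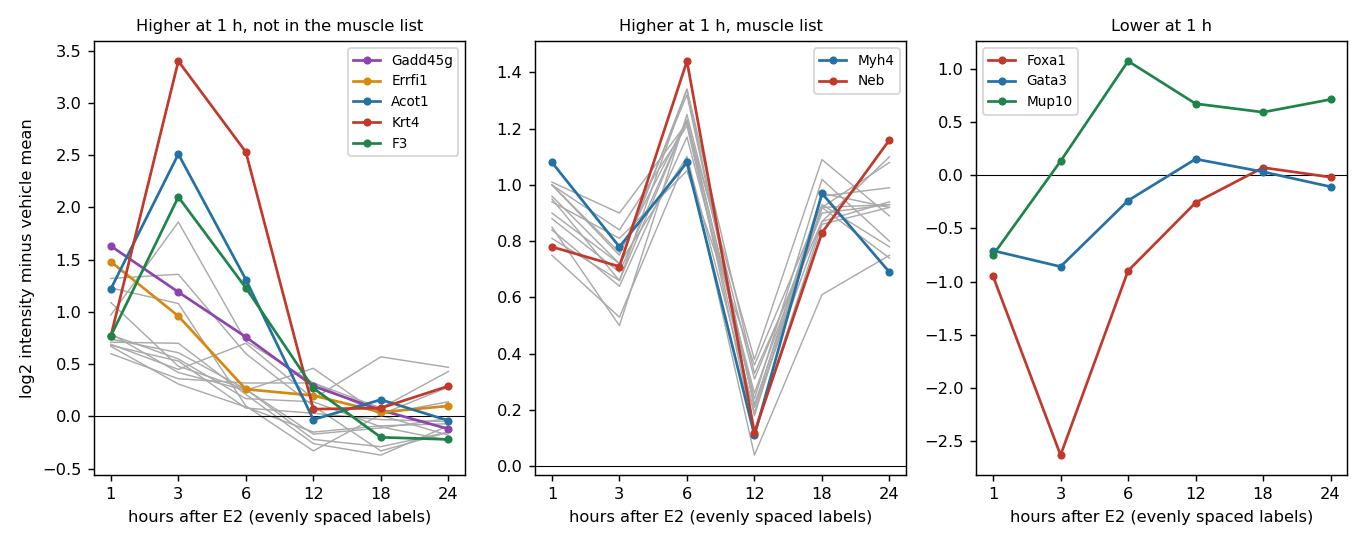
Log2 intensity minus the vehicle mean (vertical axis, scaled separately in each panel) at the 6 times after E2 (horizontal axis, evenly spaced labels, 1 array each) for the 17 higher genes outside the muscle list (left), the 15 muscle genes (middle) and the 3 lower genes (right), with named genes in colour and the others in grey. Krt4, Acot1 and F3 were highest at 3 h while Gadd45g and Errfi1 were highest at 1 h, and Foxa1 was lowest at 3 h.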

How the data were processed

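Per the labels' protocols, Trizol RNA was turned into biotinylated cRNA for 1-colour Affymetrix arrays. GCOS 1.0 and RMA appear in the submitters' processing notes, with no role or order given for either. The deposited intensity values cover 45101 probe sets on a linear scale, with array medians between 173.9 and 180.5. How the authors normalized them is not stated beyond these names. The values were taken to log2 as deposited.

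Control probe sets (64) were dropped. Probe sets with 1 gene symbol numbered 34945, those with several 932 and those with none 9160, and symbols were compared through Entrez identifiers with RefSeq on GRCm38.p6 (34741 matched, 0 updated). Listed genes without such a probe set were not analysed here. A gene with several probe sets was represented by the brightest one on average. The level limit was the 40th percentile of gene means (7.72, an intensity of 211), which kept 10916 of 18193 genes. Counts at 1 h carry no p-value. An alternative, a limma 3.58.1 fit (R 4.3.3) with 7 group means, 1 residual degree of freedom and Benjamini-Hochberg adjustment, assumes that single arrays vary as the vehicle arrays do. The number of arrays limits the precision. The counting rule and the limma fit were tested on simulated data. The comparison, the members and the 29 gene lists were chosen with earlier results of these data known.

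Genes were named by a written rule. It took all genes past 1.5-fold, those next to the limit, up to 5 members per list farthest from the nearer vehicle array, and a set of immediate early, estrogen and glucocorticoid response genes. Other genes named in the text, the epidermal genes among them, were chosen after their values were seen. Alternatives varied the level filter (none, 60th percentile), normalization (quantile, median), probe set choice, an offset of 50, the fold limit, the reference and the arrays used.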

Additional observations from a re-analysis of the deposited data

Results flagged for a closer look

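Genes below the level filter held 5 past the 1.5-fold limit at 1 h, against 1 with each vehicle array as the odd one, among 7277 genes. All 5 were higher. They were Krt10 at 1.27 above the vehicle mean, Krt77 at 1.06, Krtdap at 0.98, Gbp2b, an interferon-induced GTPase, at 0.83 and Fosb, an AP-1 subunit, at 0.74. The first 3 are genes of epidermal differentiation, and at 3 h they lay at 1.64, 1.27 and 0.78. Fosb read 160.5 and 153 in the vehicle arrays and 262 at 1 h.

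Probe sets without exactly 1 gene symbol also held 5 beyond both vehicle arrays at 1 h, 4 higher and 1 lower of 2585 with sufficient signal, against 3 for vehicle 1 and 1 for vehicle 2 as the odd array. The farthest read 364 and 360.4 in the vehicle arrays and 766 at 1 h, and the lower one read 764 and 718 in vehicle and 444 at 1 h. They are not named here.

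Mup10 lay on opposite sides of vehicle at different times, at -0.75 at 1 h and 1.07 above the vehicle mean at 6 h, a difference between times that was not tested.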

How the results depend on the processing

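The 35 genes were chosen for lying beyond both vehicle arrays, which largely fixes their direction under other settings, so its repetition is no sign of stability. Quantile normalization gave 31 genes, all among the 35, and median centring 36, of which 34 were shared. With the mean of the probe sets 26 of the 35 remained. The count of lower genes was 1, in place of 3, with the filter at the 60th percentile and with an offset of 50, and the genes with a vehicle array as the odd one numbered 5 and 6, in place of 10. Leaving out a vehicle array gave 53 to 61 genes, 46 to 50 higher and 7 to 11 lower, which include the 35 by construction. At the lower limit of 0.32 the counts were 94 in all, 80 higher, 14 lower and 126 for the vehicle arrays, at 2-fold 6, 6, 0 and 0, and at 3-fold 0 throughout. Without the muscle list 20 genes were left, 17 of them higher. The limma fit called 7 genes at an adjusted p below 0.05, 6 higher and 1 lower (Foxa1), with 300 genes at an unadjusted p below 0.05. The immediate early median was 0.09 with quantile normalization and 0.12 to 0.16 without 1 vehicle array, and the muscle median 0.64 to 1.06. The luminal regulator median, 0.01, was -0.03 without a filter, 0.07 at the 60th percentile, -0.03 with the mean of probe sets and -0.01 to 0.01 without 1 vehicle array, so it has no direction. The cause of these changes was not tested beyond the smaller number of genes or arrays. Of 208 values for the other lists 174 moved by less than the vehicle SD and 34 by more. That SD comes from the same 2 vehicle arrays. Leaving out 1 of them therefore stays within it largely by construction, and lists with vehicle arrays far apart have the widest margin. No paired analysis was possible because each E2 time has 1 array, so the groups share fewer than 2 replicate numbers. Gata3 lies below the level limit on the 1 h array (188) and on the 3 h array (169.1).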

Other observations

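Clock genes lay on both sides of vehicle at 1 h. Of 13 with signal 3 lay above both vehicle arrays and 6 below both, against 39.7% and 22.1% of all genes, with a median of -0.01. Dbp, a clock output transcription factor, read 383 and 337 in the vehicle arrays and 251 at 1 h, and Nr1d1, the repressor REV-ERB alpha, read 909 and 672 in vehicle and 559 at 1 h, while Nfil3, which opposes Dbp at shared sites, lay 0.60 above the vehicle mean. The vehicle arrays, both titled 24 h, differed in Nr1d1 by 0.44. The 1 h array lay at -0.27 from vehicle 2 and at -0.70 from vehicle 1.

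In fatty acid and triglyceride synthesis 16 of 24 genes lay between the vehicle arrays at 1 h, with a median of -0.05, where 38.2% of all genes did. In cholesterol synthesis 8 of 18 did, with 4 above both and 6 below both and a median of -0.06. The vehicle arrays themselves lay 0.26 and 0.19 apart in these lists. Acot1, Pdk4, Ppp1r3c, a subunit that directs a phosphatase to glycogen, and Arrdc3, an arrestin family protein, led the insulin and fasting list at 1.22, 0.74, 0.46 and 0.49 above the vehicle mean, with 10 of 22 members above both vehicle arrays, near the 39.7% of all genes. Of these Arrdc3 was at -0.12 at 3 h. Cldn5, the endothelial tight junction claudin, lay 0.47 above the vehicle mean at 1 h and 0.10 at 3 h, and Vegfa, the vascular growth factor, 0.33 and 0.42, while the endothelial list had a median of 0.03.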
